A study of Mus musculus with 38 samples.

Results

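The comparison was between 3 black rice libraries coded M and 3 WT libraries coded M, all colon columns of the Apc count table, which gave 6 members of the 38 libraries of the series. The members were chosen by their labels alone, and no measured value entered the choice. The series, from mouse gut in a study of black rice feeding and colorectal cancer, holds bulk RNA sequencing libraries, in which the messenger RNA of all cells of a tissue piece is read together. The Apc table held 18 of these libraries, 3 for each of 6 groups, where the letter F or M is joined to black rice, to control diet or to WT. The question was what set the gut of Apc mice on black rice apart from that of WT mice.

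The black rice group was labelled with the word Apc in its title, the letter M and a black rice treatment. The WT group carried the letter M and no treatment at all, so the labels leave the diet of the WT mice unstated. Titles of WT libraries also carry Apc as the name of the set. The allele of Apc, the strain, the age of the mice, the length of feeding and the presence of tumour in the sampled tissue were not given in the sources used here. The groups differed in genotype and, where the WT mice had another diet, in diet as well, and these cannot be told apart. Values of the control diet M libraries, which share the Apc label but not the black rice, are therefore set beside those of the compared groups. The labels name the tissue as intestinal tract and do not say that the libraries of a group came from separate mice, so the p-values measure the spread between these libraries, which may be technical.

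Apc encodes a scaffold of the complex that marks beta-catenin for destruction, and its loss in gut epithelium switches on Wnt target genes and starts adenomas. The colon surface is a single layer of absorptive colonocytes, mucus-secreting goblet cells, hormone-releasing enteroendocrine cells and chemosensory tuft cells, renewed from stem cells in the crypts. Under it lie plasma cells that secrete immunoglobulin A, macrophages, eosinophils and lymphoid follicles, and around it the muscle coat. Black rice is a pigmented whole grain rich in anthocyanins and fibre.

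The 6 libraries held 44815329 to 54817740 counted reads, and levels are given as CPM, the count of a gene scaled to a common library size. They compare libraries, not genes of different length. No 2 libraries held identical values. Xist, which silences an X chromosome in females, was at 0.0226 to 0.815 CPM in the 6 libraries and at 1130 to 2067 CPM in the 9 libraries coded F. Ddx3y, a gene of the Y chromosome, was at 20.3 to 68.8 CPM in M libraries, so no library went against its letter. Summed colonocyte markers lay between 9070 and 19670 CPM, and summed small intestinal enterocyte markers between 308 and 849 CPM. Apc itself measured 122, 154 and 166 CPM on black rice and 119, 91.5 and 129 CPM in WT, which overlapped, and a count per gene does not show a mutant allele. WT replicate 1 stood apart in several epithelial genes. Muc2, the main gel-forming mucin of the colon, measured 2650 CPM in it against 10660 and 12770 CPM in the other WT libraries, and the sterol exporter Abcg5 measured 24.4 CPM in it against 1.51 and 1.16 CPM. Over all genes tested, Spearman correlations between libraries were 0.976 to 0.982 within black rice and 0.966 to 0.971 within WT. Across the groups they were 0.962 to 0.986, the lowest being between black rice replicate 2 and WT replicate 2. WT replicate 3 correlated more with each black rice library (0.9795 to 0.9863) than with WT replicates 1 and 2 (0.9712 and 0.9663).

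Of 21624 genes tested, 2 passed an adjusted p of 0.05 (0.00925% of genes tested), both higher on black rice. They were Slc29a4, a transporter of monoamines and adenosine, and Pnliprp2, a lipase of the pancreatic lipase family. No gene passed in the lower direction with edgeR (0% of genes tested), where 500 genes had an unadjusted p under 0.05 (2.31%). Among higher genes 370 had an unadjusted p under 0.05 (1.71%), which made 870 in all (4.02%). In 745 genes every black rice library lay above every WT library (3.45%), and in 876 every one lay below (4.05%). The median log2 difference over all genes tested was -0.01. limma-voom called the same 2 genes, and DESeq2 called 25, of which 15 were higher and 10 lower. Below, passed and adjusted p refer to edgeR unless DESeq2 is named. Black rice M against control diet M, which shares the black rice libraries, gave 7 genes past the threshold (0.0324%). Slc29a4 and Pnliprp2 were among the 7, with edgeR adjusted p of 0.049 and 0.012. Control diet M against WT M gave 0 genes past the threshold (0% of genes tested). In that comparison the log2 differences were 0.49 (SE 0.29) for Slc29a4 and -1.02 (SE 0.63) for Pnliprp2. A gene that is not called with 3 libraries a group may still differ.

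**Figure D1:**
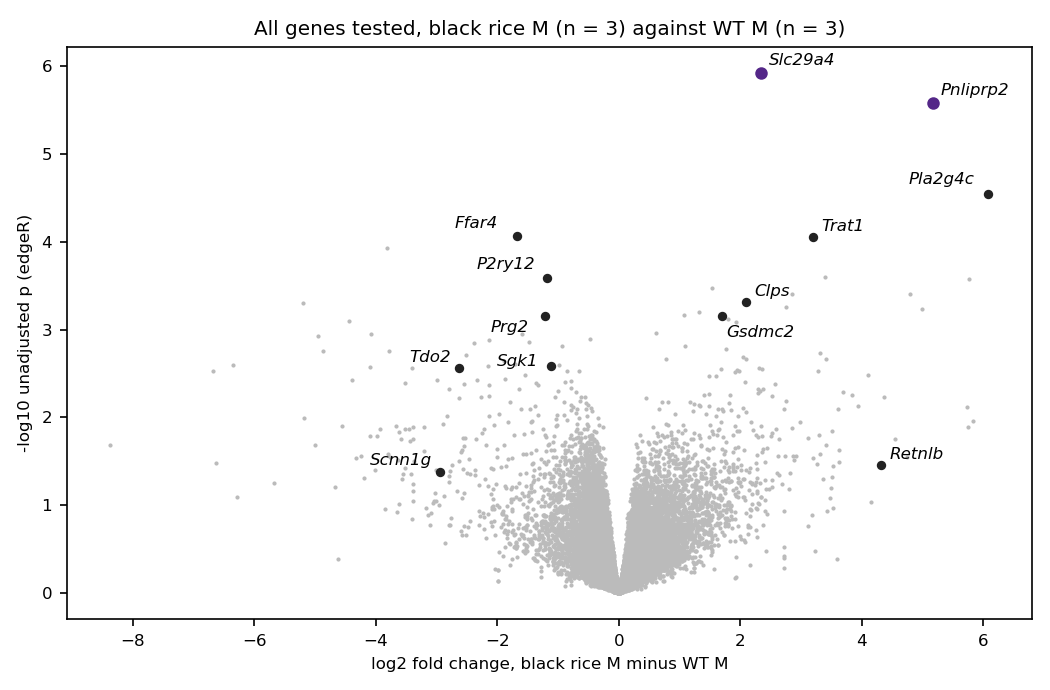
Each point is 1 of the 21624 genes tested, with the log2 fold change of black rice M minus WT M on the x axis and the minus log10 of the unadjusted edgeR p on the y axis. Slc29a4 and Pnliprp2, in purple, passed the adjusted threshold, and the black points are genes named in the text that did not.

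The promoters of both genes are shown because these were the only genes that passed the threshold. Each line gives the 250 bases before the RefSeq start of the gene on the plus strand of GRCm38.p6, at chr5:142701851-142702100 for Slc29a4 and at chr19:58759473-58759722 for Pnliprp2. These coordinates belong to the RefSeq build and not to GRCm39, the build named in the submitters' processing notes. Capitals mark the matches found in a search of both strands for 4 motifs.
Slc29a4: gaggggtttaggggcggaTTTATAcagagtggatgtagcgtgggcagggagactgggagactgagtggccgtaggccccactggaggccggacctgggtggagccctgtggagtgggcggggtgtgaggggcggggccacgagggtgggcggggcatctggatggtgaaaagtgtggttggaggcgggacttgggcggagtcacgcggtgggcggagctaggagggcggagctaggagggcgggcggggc
Pnliprp2: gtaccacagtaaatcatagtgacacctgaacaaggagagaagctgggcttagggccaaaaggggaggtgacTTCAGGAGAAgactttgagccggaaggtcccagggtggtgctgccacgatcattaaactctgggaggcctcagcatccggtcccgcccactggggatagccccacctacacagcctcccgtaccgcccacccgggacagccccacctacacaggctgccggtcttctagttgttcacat
The Slc29a4 promoter, with a GC content of 68.8%, held TTTATA from position -232, which is the TATA box motif TATAAA read on the opposite strand. The Pnliprp2 promoter, with a GC content of 58.4%, held TTCAGGAGAA from position -179, a match to the palindrome of TTC and GAA with 4 bases between them, the form that STAT6 is known to bind. Among 32851 RefSeq promoters of the same length 12.37% held TATAAA and 5.85% held that palindrome. The E-box CACGTG (6.02% of promoters) and the sterol element TCACNCCAC (1.05%) were found in neither, and no matches overlapped each other. A match of letters is a description and shows no binding.

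Slc29a4 (ENSMUSG00000050822) encodes the plasma membrane monoamine transporter, a member of the equilibrative nucleoside transporter family that moves serotonin, dopamine and, in acid, adenosine. It measured 14.1, 12.2 and 20.2 CPM in the 3 black rice libraries and 2.50, 2.87 and 3.80 CPM in the 3 WT libraries. Every black rice library lay above every WT library, and the lowest of them was above 3 times the highest WT value. Slc29a4 rose 5.07-fold from 3.06 ± 0.666 to 15.5 ± 4.19 CPM (SD, n = 3 each), a log2 fold change of 2.34 (SE 0.30, edgeR adjusted p = 0.026). The control diet M libraries measured 4.18, 3.64 and 5.07 CPM, of which 2 lay above the WT range. Of the 3 other members of the family 0 passed. Slc29a1, the main equilibrative nucleoside transporter, measured 24.1, 25.7 and 22.1 CPM on black rice and 22.9, 23.7 and 24.8 CPM in WT, and Slc29a2 and Slc29a3 differed by 0.28 and -0.20 on the log2 scale. Without black rice replicate 3, control F replicate 2 or WT M replicate 1, 2 or 3 the call was lost, with adjusted p of 0.091, 0.054, 0.2, 0.3 and 0.084 and log2 fold changes of 2.11 to 2.54. With only the 6 compared libraries in the fit the adjusted p was 0.64, and with the 9 M libraries it was 0.19.

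Pnliprp2 (ENSMUSG00000025091) encodes pancreatic lipase-related protein 2, which cleaves triglycerides, phospholipids and the galactolipids of plants. It measured 47.2, 107 and 282 CPM on black rice and 3.62, 5.17 and 3.39 CPM in WT. The groups were far apart, while the black rice libraries differed among themselves by several fold. Pnliprp2 rose 35.9-fold from 4.06 ± 0.972 to 146 ± 122 CPM (SD, n = 3 each), a log2 fold change of 5.17 (SE 0.72, edgeR adjusted p = 0.029). Control diet M libraries measured 1.16, 3.10 and 1.72 CPM, all below the WT range. The call was lost without black rice M replicate 3 (log2 fold change 4.26, adjusted p = 0.091) and without WT M replicate 1, 2 or 3 (0.29, 0.3 and 0.26). It was also lost without control F replicate 2 or 3 or WT F replicate 1, 2 or 3, with adjusted p of 0.051 to 0.057, and with only the 6 compared libraries (0.64) or the 9 M libraries (0.22).

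**Figure D2:**
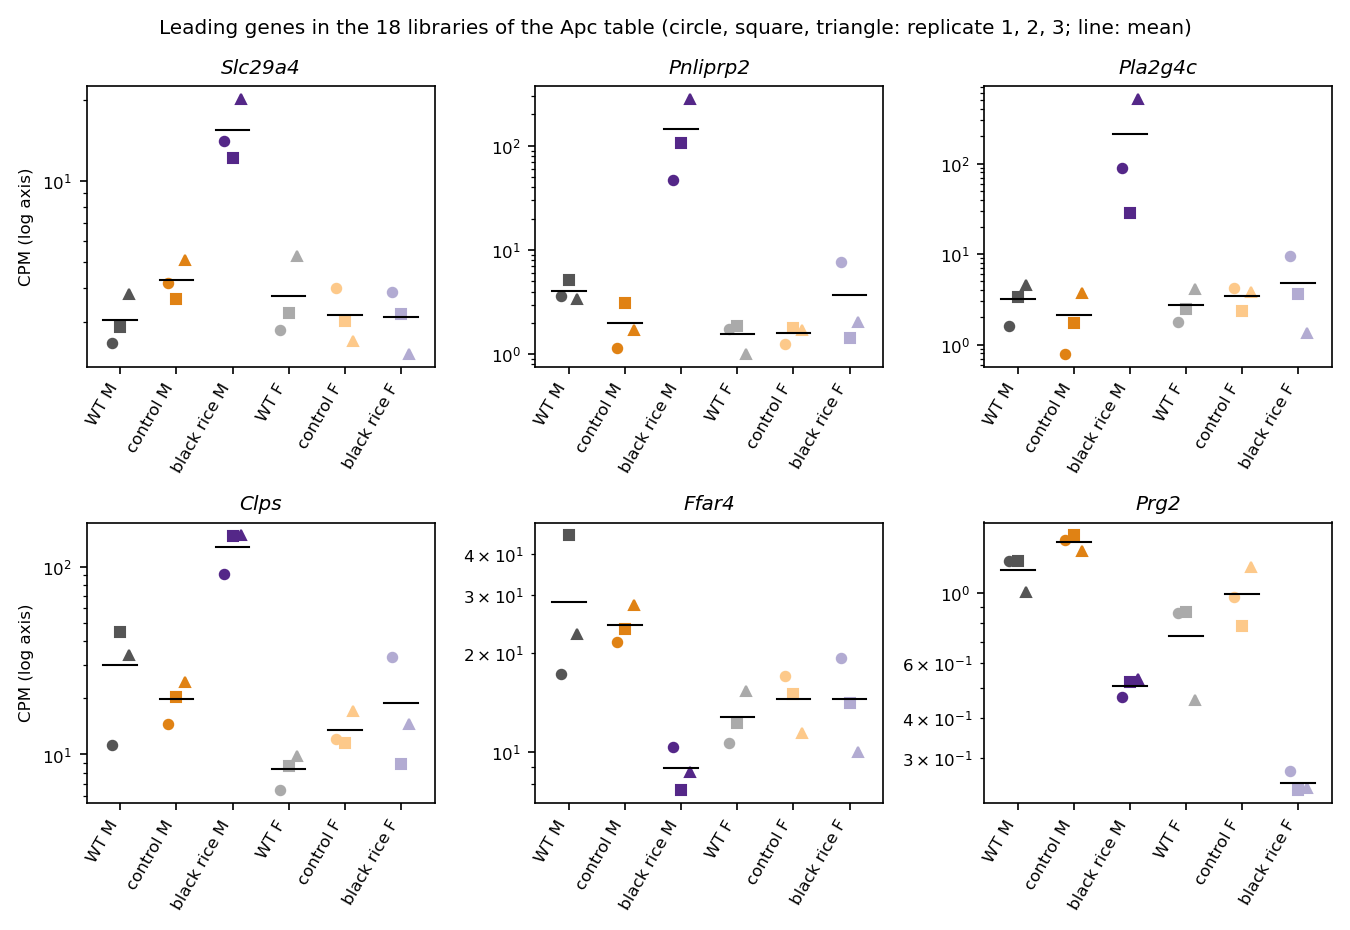
CPM on log axes for 6 genes in each of the 18 libraries of the Apc table, with the group mean as a line and replicates 1, 2 and 3 as circle, square and triangle. Slc29a4, Pnliprp2, Pla2g4c and Clps stood above the WT M libraries in all 3 black rice M libraries, and Ffar4 and Prg2 stood below them.

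Lipases and their cofactors included Pnliprp2 and Pla2g4c, the latter with the largest log2 difference among genes higher on black rice. Of 12 such genes on the list 10 were tested, 1 passed the threshold and 8 lay higher. In 4 the groups did not overlap, higher on black rice, where 3.45% of all genes did so. The list, which holds Pnliprp2, was chosen with earlier results of these data known, so this count is no separate support. The median log2 difference was 0.58 against -0.01 over all genes. Pla2g4c, the membrane-bound gamma form of the group IV phospholipases A2, measured 90.1, 28.6 and 521 CPM on black rice against 1.61, 3.32 and 4.53 CPM in WT. The values on black rice spread over more than 10-fold, and the log2 difference of 6.08 (SE 1.04) had an adjusted p of 0.21. This gene passed without black rice replicate 2 (adjusted p = 0.036), with no filter on low counts (0.021) and with DESeq2 (2.3e-08). Clps, colipase, the cofactor that holds pancreatic lipase at fat droplets, measured 91.4, 145 and 147 CPM on black rice and 11.2, 45.1 and 33.7 CPM in WT. Its log2 difference was 2.09 (SE 0.47, adjusted p = 0.76 with edgeR and 0.007 with DESeq2), and every control diet M library, from 14.6 to 24.3 CPM, lay below the black rice range. Pla2g2a, a secreted phospholipase A2 of the gut, measured 13.2, 13.1 and 52.6 CPM against 6.99, 10.8 and 5.90 CPM. Without black rice replicate 2 the list median was 0.22.

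Pnliprp2, Clps and Pnliprp1 are best known from the exocrine pancreas, so the other pancreatic enzymes were read in the same libraries. Of 15 markers of that tissue 11 were below the filter on low counts in the Apc table, and the highest value of any of them in 18 libraries was 0.552 CPM, for Pnlip, pancreatic lipase itself. Prss1, a trypsinogen, and Amy2a5, a pancreatic amylase, were at 0 counts in all 18 libraries. Cela1, an elastase, measured 82.4, 107 and 59.5 CPM on black rice and 231, 147 and 88.5 CPM in WT, so the groups overlapped with black rice on the lower side. Pnliprp1 measured 1.04, 1.69 and 2.03 CPM against 2.07, 0.407 and 0.236 CPM, which also overlapped. The summed marker level lay between 175 and 254 CPM on black rice and between 123 and 244 CPM in WT. Most of this sum was Clps, which was higher on black rice, and Cela1, which was on the lower side. The overlap of the sums therefore does not describe the 15 markers as a set.

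Several secreted products of goblet cells lay higher on black rice. Fcgbp, a large protein of the mucus gel, measured 5701, 5487 and 6511 CPM on black rice and 1518, 2766 and 2372 CPM in WT (log2 difference 1.41, SE 0.44, adjusted p = 0.97). Clca1, a mucus protease, measured 15400, 29970 and 40400 CPM against 7277, 10300 and 6862 CPM, and the lowest black rice value was above the highest WT value. Spink4, a small protease inhibitor of goblet cells, measured 2932, 1984 and 3154 CPM against 415, 1722 and 1166 CPM. Retnlb, resistin-like molecule beta, measured 1637, 1438 and 3306 CPM against 7.36, 106 and 207 CPM, a log2 difference of 4.31 (SE 1.86, adjusted p = 0.97). None of these 4 genes passed the threshold, although their groups did not overlap. The WT libraries themselves spread over more than 20-fold in Retnlb, and WT replicate 1 was the lowest in Retnlb, Fcgbp and Spink4. Without that library the log2 differences were 3.77, 1.21 and 0.91.

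The goblet list as a whole was mixed. Of its 9 members 6 lay higher and 3 lower, 0 passed the threshold and 3 lay higher without overlap, where 3.45% of all genes did. The median was 0.19, and it was -0.12 without WT replicate 1. Retnlb is counted in the antimicrobial list, where 6 of 12 lay higher with a median of 0.02. Muc2 lay between 11360 and 13550 CPM on black rice, within the range of WT replicates 2 and 3 or just above it, and its log2 difference moved from 0.48 to 0.06 without WT replicate 1. Zg16, a lectin that binds bacteria in mucus, went the other way with 1887, 1688 and 1945 CPM against 3391, 5088 and 1761 CPM, which overlapped. Summed goblet markers were 40600, 56260 and 68280 CPM on black rice and 17640, 36090 and 28130 CPM in WT, and the control diet M libraries lay between 8879 and 21510 CPM. In tissue pieces of this kind more cells of a type and more RNA per cell cannot be told apart.

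**Figure D3:**
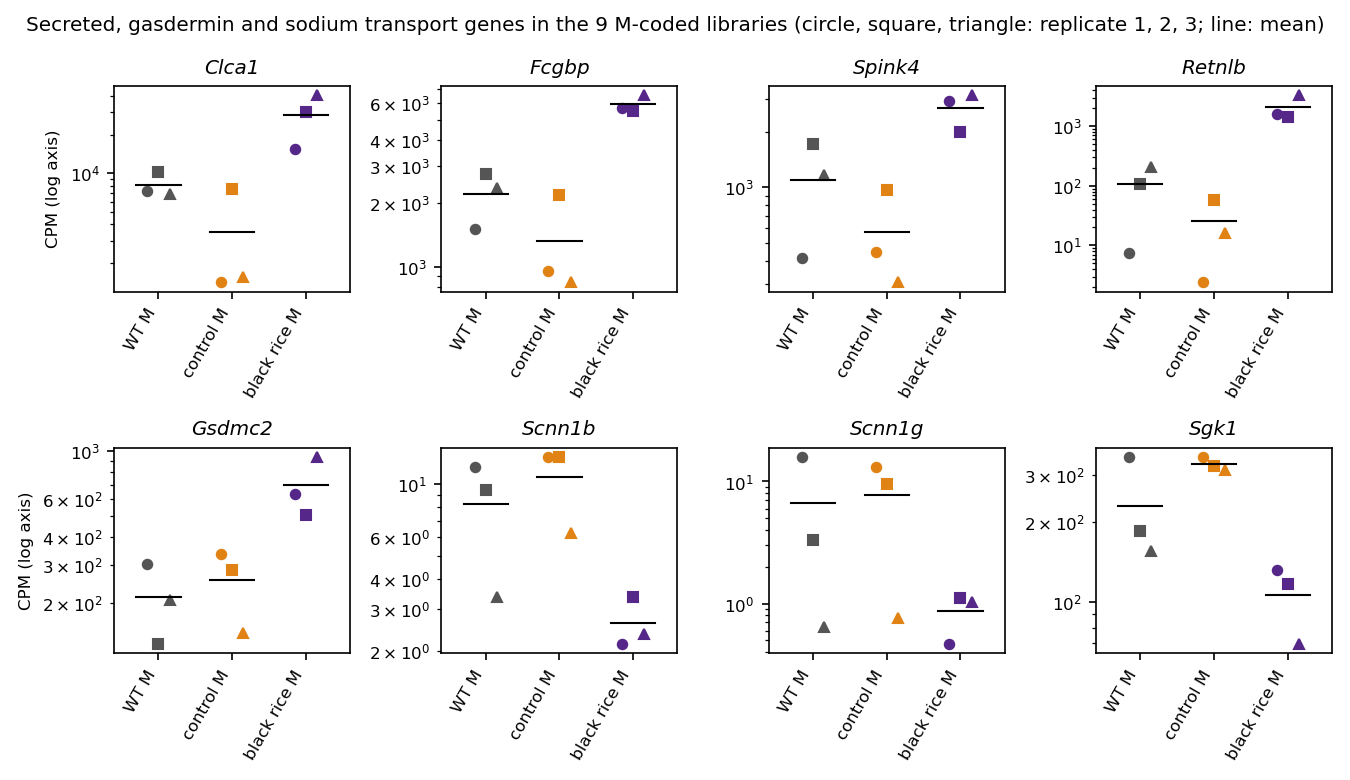
CPM on log axes for 8 epithelial genes in the 9 M libraries of the Apc table, with the group mean as a line and replicates 1, 2 and 3 as circle, square and triangle. Clca1, Fcgbp, Spink4, Retnlb and Gsdmc2 were higher in all black rice libraries than in any WT library, Scnn1b and Sgk1 were lower, and Scnn1g overlapped with WT replicate 3.

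Gasdermin C genes and tuft cell genes lay higher beside the goblet products. Gasdermins form pores in membranes, and the gasdermin C genes of mouse gut are known to respond to the cytokines of type 2 immunity. Gsdmc2 measured 634, 508 and 939 CPM on black rice and 301, 130 and 206 CPM in WT, and Gsdmc4 measured 1080, 866 and 1775 CPM against 772, 449 and 351 CPM. Neither passed with edgeR (log2 differences 1.71 and 1.24, SE 0.40 and 0.65, adjusted p = 0.76 and 0.97), DESeq2 called Gsdmc2 (adjusted p = 0.021), and in both every black rice library lay above every WT library. Gsdmc3 overlapped with 154, 154 and 211 CPM against 191, 44.8 and 72.9 CPM. Gsdmc was at or under 0.643 CPM in 5 of the 6 libraries and at 3.52 CPM in black rice replicate 2. These genes are near-identical copies, so the split of reads among them is uncertain. All 4 genes of the family lay higher and 0 passed. The 2 without overlap stand beside 3.45% of all genes that lay higher without overlap. This family was added after values had been seen, so these counts are no separate support.

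Tuft cells release interleukin 25 and stand upstream of goblet cells in responses to worms and protists. All 8 tested tuft markers of 9 lay higher, 4 of them without overlap, where 3.45% of all genes lay higher without overlap. None passed, and the median was 0.51. Dclk1, a kinase that marks these cells, measured 33.9, 31.8 and 38.0 CPM against 19.9, 28.4 and 25.5 CPM. Alox5, which starts leukotriene synthesis, measured 6.87, 6.32 and 10.0 CPM against 2.94, 5.13 and 5.13 CPM. Sh2d6 was steady at 11.1, 11.1 and 11.2 CPM on black rice and spread over 2.87, 6.51 and 10.8 CPM in WT. The summed tuft level lay between 89.3 and 112.5 CPM on black rice and between 46.6 and 82.25 CPM in WT, with WT replicate 1 the lowest, and without that library the median was 0.28.

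Cytokines and receptors of type 2 immunity did not share 1 direction. Of 15 genes 12 were tested, 6 lay higher and 6 lower, 0 passed, and the median was 0.04. Il5, Il13 and Il25 were below the filter, at or under 0.283 CPM in all 18 libraries. Il13ra2, a decoy receptor for interleukin 13, measured 1.26, 1.06 and 2.56 CPM on black rice and 0.588, 0.294 and 0.386 CPM in WT. Il17rb, a subunit of the receptor for interleukin 25, measured 5.06, 5.09 and 5.94 CPM against 3.99, 2.10 and 4.33 CPM, again without overlap. Il4 was lower with 0.510, 1.15 and 0.738 CPM against 0.828, 1.81 and 1.48 CPM, and its groups overlapped. Of the 12 tested genes 3 lay higher without overlap, where 3.45% of all genes did, and 0 lay lower without overlap. This list was also added after values had been seen, so these counts are no separate support.

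Eosinophil genes were mixed in direction. Prg2, the major basic protein of eosinophil granules, measured 0.469, 0.521 and 0.533 CPM on black rice and 1.26, 1.27 and 1.01 CPM in WT, which is 23 to 26 reads a library against 47 to 58. Its log2 difference was -1.21 (SE 0.29, adjusted p = 0.76), and every black rice library lay below every WT library. Ccr3, the eotaxin receptor, and Ear2, an eosinophil ribonuclease, lay the other way through few libraries. Ccr3 measured 0.0408, 0.292 and 2.23 CPM against 0.0653, 0.0452 and 0.150 CPM, and the black rice values rest on 2, 14 and 109 reads. Il5ra, the interleukin 5 receptor, was high in black rice replicates 2 and 3 (2.54 and 2.56 CPM) and low in replicate 1 (0.102 CPM), against 0.784, 0.136 and 0.236 CPM in WT. Ear2, which has near-identical copies, measured 0.775, 2.34 and 7.66 CPM against 1.55, 0.746 and 0.643 CPM. Epx, eosinophil peroxidase, did not pass the filter, its highest value being 0.243 CPM. Rnase2a, a ribonuclease gene outside the list, was called higher by DESeq2 (log2 difference 5.84, adjusted p = 0.0037) and did not pass with edgeR. Of the mast cell proteases, Mcpt1 and Mcpt2 lay lower without overlap. Mcpt1 measured 0.775, 0.0625 and 0.594 CPM against 1.44, 0.904 and 2.53 CPM, from 38, 3 and 29 reads against 66, 40 and 118. Mcpt2 measured 0.428, 0.125 and 0.738 CPM against 1.22, 0.949 and 1.74 CPM, from 21, 6 and 36 reads against 56, 42 and 81. Cpa3, another mast cell gene of the list, also lay lower without overlap, with 14, 8 and 18 reads against 21, 22 and 38 reads. Cma1, mast cell chymase, overlapped at 0.224, 0.396 and 1.02 CPM against 3.40, 0.587 and 0.429 CPM. Of the 11 tested members of the list 6 lay higher and 5 lower, and 0 passed. Lower without overlap were 4 of them, where 4.05% of all genes were, and 0 lay higher without overlap. The summed level of the list was 18.7 to 78.8 CPM on black rice and 36.2 to 49.5 CPM in WT. Without black rice replicate 3 the list median moved from 0.05 to -1.02.

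Some genes of sodium uptake lay lower on black rice. The epithelial sodium channel of the distal colon takes up salt under aldosterone, and the kinase encoded by Sgk1 keeps it in the membrane. Sgk1 measured 131, 117 and 69.7 CPM on black rice and 351, 185 and 155 CPM in WT (log2 difference -1.12, SE 0.31, adjusted p = 0.97). Scnn1b, the beta subunit of the channel, measured 2.14, 3.36 and 2.36 CPM against 11.8, 9.42 and 3.37 CPM, so that the highest black rice value and WT replicate 3 nearly met. Scnn1g, the gamma subunit, measured 0.469, 1.11 and 1.02 CPM against 15.9, 3.32 and 0.643 CPM, which overlapped. Scnn1a, the alpha subunit, was not lower, with 157.6, 106 and 121 CPM against 120, 157 and 92.3 CPM (log2 difference 0.06). Hsd11b2, which protects the mineralocorticoid receptor from glucocorticoids, measured 142, 172 and 109 CPM against 265, 335 and 191 CPM. Of 7 genes in this group 5 lay lower, 3 of them without overlap, where 4.05% of all genes lay lower without overlap. None passed, and the median was -0.90. WT replicate 1 was the highest library in Sgk1, Scnn1b and Scnn1g, and without it their log2 differences were -0.67, -1.28 and -1.18. Control diet M libraries measured 313 to 351 CPM for Sgk1 and 6.19 to 13.0 CPM for Scnn1b, all above the black rice range. The group was put together after values had been seen.

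Like the genes next in rank on the higher side, those on the lower side had no theme that was fixed or tested. Ffar4, a receptor for long-chain fatty acids on enteroendocrine and other cells, measured 10.4, 7.67 and 8.73 CPM on black rice and 17.25, 45.7 and 22.9 CPM in WT. Its log2 difference of -1.68 (SE 0.32) had an adjusted p of 0.39 (0.0012 with DESeq2), and the control diet M libraries lay at 21.6 to 28.0 CPM. P2ry12, the platelet receptor for ADP that some macrophages also carry, measured 1.49, 1.90 and 2.42 CPM against 5.49, 4.32 and 3.35 CPM (log2 difference -1.18, adjusted p = 0.65 with edgeR and 0.007 with DESeq2). P2ry4, a receptor for UTP on gut epithelium, measured 0.449, 1.27 and 1.29 CPM against 7.45, 2.06 and 1.48 CPM, and without WT replicate 1 its log2 difference moved from -1.86 to -0.81. Pf4, a chemokine of platelets and some macrophages, measured 1.69, 3.48 and 3.57 CPM against 10.4, 9.71 and 4.25 CPM. Bglap3, a relative of osteocalcin, measured 5.26, 1.75 and 1.60 CPM against 6.80, 12.9 and 6.198 CPM and passed only without black rice replicate 1 (log2 difference -2.37, adjusted p = 0.031). Tdo2, which opens the kynurenine pathway of tryptophan, was low in every black rice library (0.410 to 0.709 CPM) and in WT replicate 1 (0.588 CPM), and higher in WT replicates 2 and 3 (5.17 and 4.20 CPM). The other genes named by rank were Slc35a5, Zfp972, Olfr165, Cabcoco1 and Ccpg1os, with log2 differences of -0.48 to -1.70 and an adjusted p of 0.97 each. Ccpg1os lies antisense to another gene, and without strand its reads cannot be told from those of its partner.

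On the higher side the genes next in rank were of mixed kind. Trat1, an adaptor of the T cell receptor, measured 1.33, 3.52 and 5.82 CPM on black rice and 0.436, 0.136 and 0.579 CPM in WT (log2 difference 3.20, SE 0.61, adjusted p = 0.39). Summed T and NK cell markers overlapped between the groups, at 22.7 to 89.9 CPM on black rice and 46.2 to 61.5 CPM in WT. Anxa13, an annexin of gut epithelium, measured 30.04, 55.3 and 69.2 CPM against 25.4, 23.6 and 24.6 CPM. Igf2r, the receptor for mannose 6-phosphate and insulin-like growth factor 2, measured 122, 148 and 182 CPM against 99.6, 98.9 and 96.9 CPM. Fmn2, a formin that assembles actin, Nptx1, a neuronal pentraxin, and Fam221a lay 2.90-fold, 3.80-fold and 2.49-fold higher with adjusted p of 0.71, 0.76 and 0.76 in edgeR. DESeq2 called 5 of these genes, with adjusted p of 0.00012 for Trat1, 0.007 for Fmn2, 0.023 for Nptx1 and Fam221a and 0.048 for Anxa13. All 6 of these genes had groups that did not overlap, where 3.45% of all genes lay higher without overlap. They were named by their small p in these same libraries, so the lack of overlap is no separate support.

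Immunoglobulin segments lay lower on black rice, and plasma cell genes with them. The variable segments are the parts of antibody genes that differ from clone to clone, so their level follows which plasma cell clones a tissue piece holds. Of 191 tested segments 150 lay lower and 40 higher, 0 passed with edgeR, and 35 (18.3%) lay lower without overlap, where 4.05% of all genes did. Segments are near-identical copies that share reads, so these are not 191 separate measurements. The median log2 difference was -1.38, and it was -0.22 for control diet M against WT M and -1.94 for black rice F against WT F. Summed segments measured 1068, 2204 and 1686 CPM on black rice and 3108, 3270 and 1343 CPM in WT, and WT replicate 3 lay within the black rice range. Of the 10 genes that DESeq2 called lower, 8 were such segments and the other two were Ffar4 and P2ry12.

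Jchain, which joins immunoglobulin A chains for secretion, measured 683, 881 and 549 CPM against 1469, 1783 and 935 CPM. Mzb1, a chaperone of plasma cells, measured 0.836, 1.52 and 1.52 CPM against 4.42, 3.03 and 1.97 CPM, and both genes were lower in every black rice library. The constant chains Igha and Igkc overlapped, with Igha at 1692, 2405 and 1675 CPM against 3240, 4021 and 1713 CPM. Ighm, the heavy chain of immunoglobulin M, lay the other way with 69.5, 180 and 208 CPM against 104, 90.4 and 35.2 CPM, which overlapped. The B and plasma cell list had 9 members higher and 5 lower of 14, with 0 passing. Lower without overlap were 2 of them, where 4.05% of all genes were. The list median was 0.59, which was -0.05 without black rice replicate 3 and 0.18 without WT replicate 3.

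Macrophage markers lay lower in 11 of 12 members with a median of -0.54, 0 passed, and 0 had groups that did not overlap. The median stayed below 0 whichever library was left out, from -0.97 without black rice replicate 3 to -0.34 without WT replicate 1. Apoe, the lipoprotein of macrophages and other cells, measured 198, 235 and 322 CPM on black rice and 467, 493 and 267 CPM in WT. C1qa and C1qb, chains of the complement starter C1q, measured 35.8, 29.7 and 60.1 CPM against 80.0, 90.2 and 49.9 CPM and 33.6, 38.3 and 77.1 CPM against 85.6, 106 and 58.6 CPM. In each of these genes WT replicate 3 fell within the black rice range and black rice replicate 3 was the highest of its group. Interferon gamma response genes lay higher in 18 of 18 members with a median of 0.83, 0 passed, and 0 had groups that did not overlap. Their summed level was 652, 274 and 1321 CPM on black rice against 323, 474 and 496 CPM in WT, so 1 black rice library lay below all WT libraries. Without black rice replicate 3 the median was 0.16. Iigp1, an interferon-induced GTPase, measured 35.5, 12.6 and 255 CPM against 10.9, 19.2 and 37.6 CPM. Nos2, inducible nitric oxide synthase, measured 3.81, 0.855 and 42.6 CPM against 2.29, 1.15 and 1.72 CPM, and without black rice replicate 3 its log2 difference moved from 3.19 to 0.46. Type I interferon genes lay higher in 13 of 17 members with a median of 0.37, which was -0.98 without black rice replicate 1 and -0.01 without WT replicate 1. Mx1, an antiviral GTPase, measured 62.7, 24.6 and 21.9 CPM against 5.77, 5.74 and 26.7 CPM. Black rice replicate 1 carried the highest summed level (1444 CPM) and replicate 2 the lowest (160 CPM), with WT at 166 to 775 CPM.

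**Figure D4:**
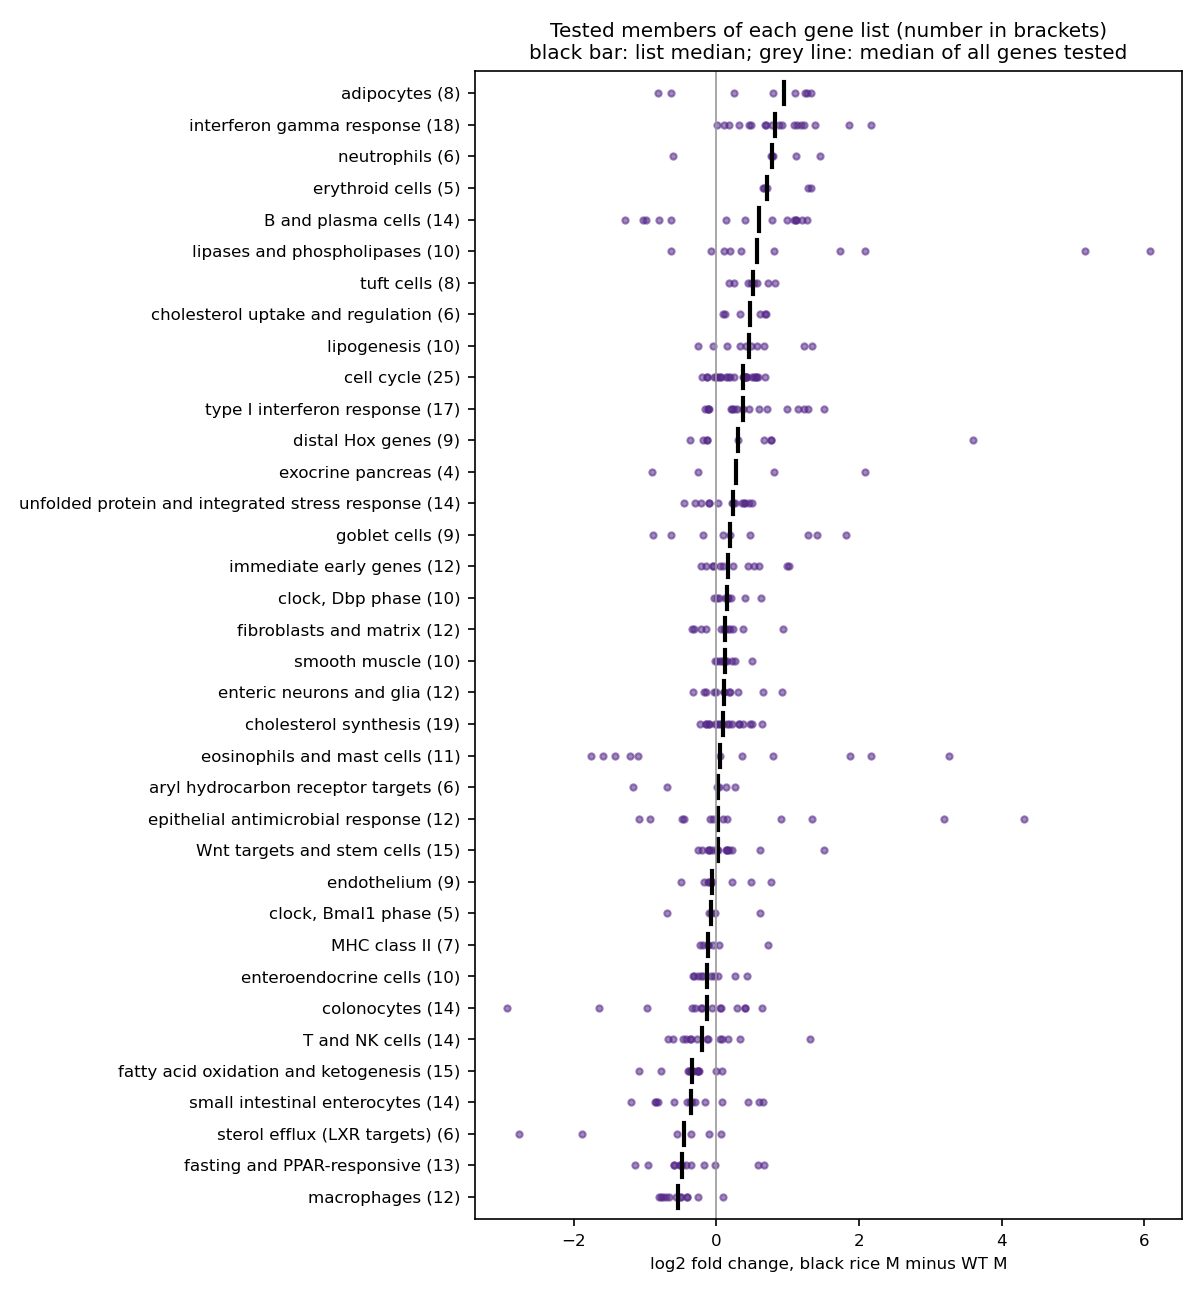
Log2 fold changes of black rice M minus WT M for each tested member (points) of the 36 lists, with the number of members in brackets, the list median as a black bar and the median of all genes as a grey line. Medians ran from -0.54 for macrophages to 0.95 for adipocytes, and Pla2g4c and Pnliprp2 are the points farthest to the right.

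Sterol and fasting genes are set beside the control diet, since both diets were compared with the same WT M libraries. Cholesterol synthesis genes had a median of 0.09 for black rice against WT, with 13 of 19 members higher and 0 passing, and a median of -1.34 for control diet against WT. The former was -0.29 without black rice replicate 3 and -0.01 without WT replicate 1. Their summed level was 1664, 1318 and 3067 CPM on black rice, 1319, 2118 and 2064 CPM in WT and 656 to 1063 CPM on control diet. The black rice libraries thus overlapped with WT, and all control diet M libraries lay below both. Insig1, which holds back sterol synthesis when sterols are plentiful, measured 91.1, 80.3 and 181 CPM on black rice and 76.6, 74.7 and 66.4 CPM in WT, which did not overlap. The list of cholesterol uptake and regulation genes had a median of 0.47 with 6 of 6 higher, and 0.10 without WT replicate 1 and 0.13 without black rice replicate 3. The sterol exporters Abcg5 and Abcg8 had log2 differences of -2.77 and -1.88, and -0.01 and 0.18 without WT replicate 1. Lipogenic genes lay higher in 8 of 10 members with a median of 0.45, which was 0.27 without black rice replicate 3 and 0.26 without WT replicate 1. Scd1, which desaturates stearate, measured 109, 189 and 146 CPM against 50.5, 58.7 and 65.9 CPM, and Me1, malic enzyme, measured 30.7, 19.8 and 35.1 CPM against 7.45, 16.1 and 12.9 CPM, both without overlap.

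Genes of fatty acid oxidation lay lower in 14 of 15 members with a median of -0.34, which was -0.13 without WT replicate 2, and it was 0.28 for control diet. Hadhb, a subunit of the mitochondrial trifunctional protein, measured 89.4, 73.3 and 73.6 CPM on black rice and 102, 122 and 85.8 CPM in WT. Fasting and PPAR-responsive genes had a median of -0.48 with 11 of 13 lower, and 1.003 for control diet. Depp1, a target of FOXO factors in fasting, measured 1.90, 2.86 and 1.68 CPM on black rice, 3.99, 3.16 and 2.55 CPM in WT, and 27.1, 16.3 and 12.6 CPM on control diet. Clock genes that peak with Dbp had a median of 0.16, against -0.60 for control diet. Ciart, a clock repressor, measured 12.3, 11.6 and 10.8 CPM on black rice, 5.86, 6.33 and 10.3 CPM in WT and 2.19, 3.68 and 2.15 CPM on control diet. Depp1 overlapped between black rice and WT, and Ciart did not. The time of tissue collection was not given in the sources used here, and 0 members of these 3 lists passed for black rice against WT.

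Wnt targets, cell cycle genes and targets of the aryl hydrocarbon receptor gave no member past the threshold. The Wnt and stem cell list had 9 members higher and 6 lower of 15 tested and a median of 0.02. Axin2, a feedback target of Wnt signalling, measured 39.4, 43.1 and 48.6 CPM on black rice and 38.2, 36.0 and 42.3 CPM in WT, and Lgr5, the marker of crypt stem cells, measured 21.5, 21.9 and 13.2 CPM against 25.65, 17.5 and 24.7 CPM. The log2 differences were 0.17 (SE 0.20) and -0.26 (SE 0.28). Cell cycle genes lay higher in 20 of 25 members with a median of 0.38 and 0 without overlap, and the median was 0.10 without black rice replicate 3 and 0.20 without WT replicate 1. Mki67, a marker of dividing cells, measured 173, 131 and 239 CPM against 96.5, 101 and 171 CPM. Ahr, the receptor itself, measured 20.0, 23.0 and 24.0 CPM against 25.0, 18.3 and 21.9 CPM. Cyp1a1, its classical target, did not pass the filter, its highest value in 18 libraries being 2.46 CPM. Smooth muscle, nerve, fibroblast and endothelial lists had medians of 0.12, 0.11, 0.12 and -0.06, with summed smooth muscle markers at 3453 to 5980 CPM on black rice and 3035 to 5731 CPM in WT. Fn1, fibronectin, measured 250, 266 and 365 CPM against 111, 197 and 154 CPM and was the fibroblast gene without overlap. Adipocyte genes had a median of 0.95, which was 6.28 without WT replicate 3 and -0.35 without black rice replicate 2. Adipoq, adiponectin, measured 0.0871, 0.0678 and 7.36 CPM in WT and 1.51, 15.1 and 2.30 CPM on black rice.

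Lists of other cell types and responses also held 0 members past the threshold. Small intestinal enterocyte genes lay lower in 10 of 14 members (median -0.36) and colonocyte genes in 8 of 14 (median -0.13, with 0.04 and 0.05 without black rice replicate 2 and 3). Enteroendocrine genes lay lower in 7 of 10, and Chga, chromogranin A of hormone granules, measured 60.3, 65.9 and 58.0 CPM on black rice and 68.7, 83.8 and 75.9 CPM in WT, which did not overlap. Genes of MHC class II had a median of -0.12, which ran from -0.87 without black rice replicate 3 to 0.27 without WT replicate 2. It was also above 0 without black rice replicate 1 (0.25) or 2 (0.12). T and NK cell genes had a median of -0.21, which was 0.13 without black rice replicate 2 and -0.99 without replicate 3. Neutrophil genes had a median of 0.79, and -0.33 without black rice replicate 3. The unfolded protein response, immediate early genes and erythroid genes had medians of 0.23, 0.16 and 0.71, and summed erythroid markers overlapped at 35.2 to 44.85 CPM on black rice and 7.57 to 45.5 CPM in WT.

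The same contrast was then tested between the letters M and F, as the difference of black rice against WT in M libraries minus that in F libraries. No gene passed with edgeR (0% of genes tested), with 685 genes at an unadjusted p under 0.05 (3.17%), 0 genes with limma-voom and 13 with DESeq2. Slc29a4 measured 3.88, 3.21 and 2.28 CPM in black rice F libraries and 2.78, 3.23 and 5.25 CPM in WT F libraries, and its difference of 2.61 between the letters (SE 0.42) had an edgeR adjusted p of 0.32. Pnliprp2 measured 7.76, 1.42 and 2.04 CPM on black rice F and 1.76, 1.88 and 1.01 CPM in WT F, with a difference of 3.90 (SE 0.90, adjusted p = 1). Trat1 measured 0.468, 0.292 and 0.352 CPM against 0.505, 0.745 and 1.27 CPM in F, opposite in sign to M, with a difference of 4.38 (SE 0.84, adjusted p = 0.71). Cbr3, a carbonyl reductase, measured 30, 21.3 and 24.7 CPM against 13.7, 17.3 and 10.8 CPM in M and 4.35, 7.20 and 11.4 CPM against 18.7, 17.4 and 13.6 CPM in F. P2ry12 lay lower in M and measured 3.28, 3.68 and 2.97 CPM against 2.44, 1.97 and 2.64 CPM in F. For Cbr3 and P2ry12, too, the adjusted p of the difference was 1, and DESeq2 called all 5 of these genes. Prg2 lay lower on black rice under both letters, with log2 differences of -1.21 in M and -1.54 in F, where it measured 0.273, 0.237 and 0.241 CPM against 0.863, 0.870 and 0.457 CPM.

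**Figure D5:**
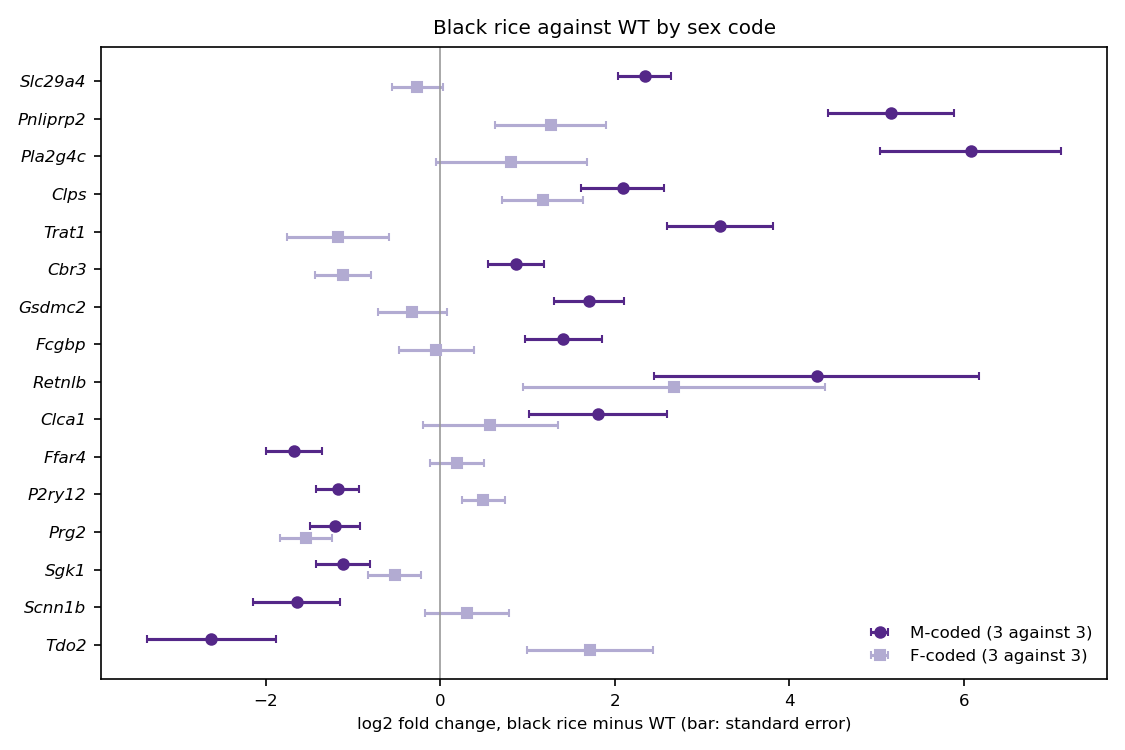
Log2 fold changes of black rice minus WT with standard errors for 16 genes in M libraries (dark circles) and F libraries (light squares), 3 against 3 for each. Slc29a4 stood at 2.34 in M and -0.27 in F, and Prg2 at -1.21 and -1.54.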

How the data were processed

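RNA of 18 Apc libraries was read as 6 groups of 3, of which black rice M and WT M were compared. Per the labels' protocols, Trizol extraction was followed by oligo(dT) capture of messenger RNA, PCR with rolling circle amplification, and DNBSEQ sequencing. The authors deposited raw counts, whole numbers of reads per gene, with no normalization. The submitters' processing notes name GRCm39 and the tools HISAT2, featureCounts (Subread), SAMtools, fastp and FastQC. The counting settings and strand of the Apc table were not given in the sources used here. Of 55416 genes 52083 had a symbol, and 0 columns were left unmapped. Counts are of reads without molecular identifiers.

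Counts were fitted with edgeR 4.0.16 in R 4.3.3: filterByExpr by group, TMM factors, group means without intercept, all 18 libraries (12 residual degrees of freedom), two-sided quasi-likelihood F tests and Benjamini-Hochberg adjusted p under 0.05 over 21624 genes. The fit was also run on simulated counts as a check of the code, and no result given here rests on that run. CPM and means ± SD use the same scaling. Alternatives were DESeq2 1.42.0, limma-voom 3.58.1 with quality weights, RLE factors, no filter, a stricter filter, a replicate block, fewer libraries and leaving out each library.

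Named genes were the 12 smallest p in each direction whose average log2 CPM was 0 or more (antigen receptor segments, pseudogenes and predicted genes were skipped), the 3 smallest p of each of 36 lists, the 5 smallest p of the M and F difference, and Apc, Lgr5, Axin2, Mki67, Pnliprp2, Prg2, Xist, Ddx3y and Ahr. Some genes that this rule names are not reported here. Other named genes were chosen after their values were seen. The comparison and the lists were chosen with earlier results of these data known, and 4 lists (gasdermin C, sodium transport, type 2 cytokines, nucleoside transporters) after values of this comparison were seen. Lists are described by counts and medians, with no set test. The other tables of the series were not used here.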

Additional observations from a re-analysis of the deposited data

How the results depend on the processing

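Slc29a4 and Pnliprp2 stayed higher under every alternative run, with log2 fold changes of 2.11 to 2.54 and 4.26 to 5.59 when 1 library was left out. The count of genes past the threshold was 2 with RLE factors, the stricter filter and limma-voom, 3 with no filter, 25 with DESeq2, and 0 with only the 6 compared libraries or the 9 M libraries. It ran from 0 to 3 when 1 library was left out: 0 without black rice M replicate 3, control F replicate 2 or any WT M library, 1 without control F replicate 3 or any WT F library, and 3 without black rice M replicate 1 or 2. A replicate block gave 0 calls, with adjusted p of 0.065 for Slc29a4 and 0.17 for Pnliprp2. Deviations of libraries with the same number had correlations of -0.206, -0.341 and -0.098, and those with different numbers reached 0.273. These deviations are from means of 3 libraries and depend on each other. They therefore cannot show whether the numbers pair the libraries. The M and F difference gave 13 genes with DESeq2 and 0 under the other alternatives. The cause of these differences was not tested, apart from the fewer libraries that some alternatives hold.

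For 159 named genes under 26 alternative settings, 31 of 4117 values turned sign, none of them in a gene past the threshold. Values of 1 setting come from the same fit and are not separate refits. Under limma-voom Rsad2 was -0.071, Cxcr2 -0.052 and Ahr -0.01. With 1 library left out the log2 difference was Stard4 -0.001 to 0.229, Abcg8 -2.337 to 0.183, Clock -0.24 to 0.125, Rsad2 -1.104 to 2.019, H2-Aa -1.045 to 0.152, H2-Eb1 -0.821 to 0.08, Gzmb -0.397 to 1.865, Csf3r -0.092 to 1.091 and Cxcr2 -1.391 to 1.904. For the others it was Myh11 -0.012 to 0.374, Adipoq -0.4 to 6.316, Aldh3a1 -1.108 to 0.462, Hoxc10 0 to 4.154, Xist -0.957 to 0.161, Ddx3y -0.313 to 0.418, Ahr -0.069 to 0.161, Cma1 -2.233 to 0.118, Scnn1a -0.115 to 0.273, Gsdmc -2.425 to 5.633 and Slc29a1 -0.043 to 0.075. List medians moved beyond the replicate spread in 15 of 288 values, from 36 lists under 8 settings. Their ranges with 1 library left out were cholesterol uptake and regulation 0.096 to 0.668, sterol efflux (LXR targets) -0.661 to 0.088, clock, Dbp phase -0.045 to 0.268, neutrophils -0.333 to 1.474, eosinophils and mast cells -1.021 to 0.297 and erythroid cells 0.321 to 1.777. The others were adipocytes -0.349 to 6.282, exocrine pancreas -1.134 to 0.381, immediate early genes 0.03 to 0.605, distal Hox genes -0.052 to 0.826 and lipases and phospholipases 0.215 to 0.598. Ccr3, with 2 to 109 reads a library, had a standard error of 1.40 on the log2 scale.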
